A study of Homo sapiens with 12 samples.

Results

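Chromatin accessibility was examined at 10 genes that encode sensors of foreign or misplaced nucleic acids and their direct adaptors, namely RIGI, IFIH1, DHX58, MAVS, TLR3, CGAS, STING1, IFI16, AIM2 and ZBP1. The genes were chosen by function, and every accessible 100-bp bin lying within a gene body or within 10 kb of it on either side (GENCODE v44, GRCh38) was taken. Joined where they touch, these bins formed 35 of the 79177 accessible regions of DU-145 cells and 50 of the 46298 of BT-549 cells, and 25 of the 32671 regions made of bins present in both lines. The assay, ATAC-seq, cuts open chromatin with a transposase, so that the number of fragments over a bin measures how accessible that stretch of DNA is.

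DU-145 is a castration-resistant prostate cancer line and BT-549 a triple-negative breast cancer line. Both carry a hairpin against MUC1 under tetracycline control (tet-MUC1shRNA), in the vehicle libraries as well as in the treated ones. Cells received 0.1% DMSO as vehicle or doxycycline (DOX), which induces the hairpin, for 1 week, with 3 libraries in each of the 4 groups. The effects of MUC1 silencing and of DOX itself cannot be told apart, since no cells carrying a control hairpin were analysed here, and silencing itself cannot be read from accessibility and was not examined here. The study's methods describe the 3 replicates of a condition as biologically independent.

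RIGI (RIG-I), IFIH1 (MDA5) and DHX58 (LGP2) are cytosolic helicases of 1 family that bind viral or other unusual RNA, and the first and second of these signal through MAVS on mitochondria. TLR3 detects duplex RNA in endosomes, CGAS detects cytosolic DNA and makes a cyclic dinucleotide that activates STING1, IFI16 and AIM2 bind DNA through related domains, and ZBP1 recognizes Z-form nucleic acids and can trigger necroptosis. Many of these genes are induced by interferon, through elements such as the ISRE that factors of the interferon response bind, and they are known for setting the inflammatory tone of cancer cells.

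The DNA of the regions on which the results turn is printed here on the strand of its gene, 5′ to 3′, from the GRCh38 genome. Capitals mark matches on either strand to an ISRE core (GAAANNGAAA, printed as its reverse complement where it lies on the opposite strand), an AP-1 site (TGANTCA) or a kB site (GGGANNNTCC). The promoter stretches of IFIH1 (chr2:162318685-162318839) and RIGI (chr9:32526209-32526408), both on the minus strand, are shown because their regions were called lower with DOX in BT-549 cells. These regions were also called lower in DU-145 cells and kept a peak in every DOX library of both lines. The IFIH1 stretch holds ISRE cores and a kB match, whereas the RIGI stretch holds a kB match and no ISRE core.
IFIH1 promoter: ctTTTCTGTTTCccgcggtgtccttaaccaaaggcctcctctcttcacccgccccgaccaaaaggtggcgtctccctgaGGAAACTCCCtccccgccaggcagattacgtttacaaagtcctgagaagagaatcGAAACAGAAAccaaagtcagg
RIGI promoter: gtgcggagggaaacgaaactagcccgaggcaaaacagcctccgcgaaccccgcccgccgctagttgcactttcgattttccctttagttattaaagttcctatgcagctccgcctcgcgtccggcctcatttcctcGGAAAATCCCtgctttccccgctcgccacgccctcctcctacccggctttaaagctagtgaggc

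Some elements away from the canonical start sites were called in opposite directions in the lines, and 3 of these are shown for that reason. They are a RIGI upstream element (chr9:32529641-32529870, minus strand), an AIM2 distal element in an intron of longer AIM2 transcripts (chr1:159091991-159092270, minus strand) and an IFIH1 downstream element (chr2:162261601-162261900, minus strand). The calls at RIGI and IFIH1 in DU-145 and at AIM2 in BT-549 were lost once the trend with GC content was removed. The RIGI element holds an ISRE core and an AP-1 match, the AIM2 element 3 AP-1 matches and the IFIH1 element none of these motifs.
RIGI upstream element: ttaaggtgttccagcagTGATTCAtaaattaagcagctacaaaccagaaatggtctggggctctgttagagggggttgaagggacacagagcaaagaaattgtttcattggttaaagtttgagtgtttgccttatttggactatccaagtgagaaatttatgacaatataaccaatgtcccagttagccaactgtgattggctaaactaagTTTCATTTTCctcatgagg
AIM2 distal element: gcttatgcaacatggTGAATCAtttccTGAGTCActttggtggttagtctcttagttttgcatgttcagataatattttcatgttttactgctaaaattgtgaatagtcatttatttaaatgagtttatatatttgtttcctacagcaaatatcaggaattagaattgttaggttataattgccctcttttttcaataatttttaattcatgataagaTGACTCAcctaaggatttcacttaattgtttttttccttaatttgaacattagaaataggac
IFIH1 downstream element: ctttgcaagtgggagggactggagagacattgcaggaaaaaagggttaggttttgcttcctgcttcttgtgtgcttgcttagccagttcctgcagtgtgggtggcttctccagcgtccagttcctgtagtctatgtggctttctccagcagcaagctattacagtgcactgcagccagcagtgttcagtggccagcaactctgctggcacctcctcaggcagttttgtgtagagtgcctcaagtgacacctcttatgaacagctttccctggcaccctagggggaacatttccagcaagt

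A further set opened with DOX in DU-145 cells. It includes part of a RIGI region at an alternative start inside the gene (chr9:32502737-32502900, minus strand) and the AIM2 promoter (chr1:159076767-159077016, minus strand). How reads that match several places in the genome were treated is not given in the sources used here.
RIGI intronic start: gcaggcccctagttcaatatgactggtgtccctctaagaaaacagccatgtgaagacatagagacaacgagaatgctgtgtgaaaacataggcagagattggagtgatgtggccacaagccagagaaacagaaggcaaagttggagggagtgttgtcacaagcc
AIM2 promoter: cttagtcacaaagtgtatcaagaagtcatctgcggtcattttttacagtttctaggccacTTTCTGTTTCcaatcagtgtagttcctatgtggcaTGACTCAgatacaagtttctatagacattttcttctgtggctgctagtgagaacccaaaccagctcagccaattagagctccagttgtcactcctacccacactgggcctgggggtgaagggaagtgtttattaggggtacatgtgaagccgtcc

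Levels below are the mean bin coverage of a region per 1000000 of the summed coverage of its library, and an effect is a log2 fold change ± its standard error with the adjusted p of edgeR's quasi-likelihood test (Benjamini-Hochberg over all regions of the line, 3 libraries against 3). A region was called at an adjusted p under 0.05. Regions are named by the distance of their centre from the canonical start of the gene. For DU-145, the libraries summed to between 12370094 and 24001285 with vehicle and between 16337380 and 25232000 with DOX. For BT-549, the range was 9142900 to 13606129 with vehicle and 2502510 to 3267024 with DOX. All BT-549 DOX libraries were therefore shallower, with 8.84% to 16.9% of bins under a coverage of 1 against at most 0.117% in BT-549 vehicle libraries, and the part of this gap in the results was not tested. Of the promoters of defining genes, those of epithelial cells were present for 4 of 4 genes in DU-145 and 0 of 4 in BT-549, those of mesenchymal cells for 2 of 3 and 3 of 3, those of breast luminal cells for 2 of 2 and 1 of 2, and those of immune cells for 1 of 3 (PTPRC, at a mean level of 0.127) and 0 of 3. The promoter of KLK3 was absent from the DU-145 table and that of ESR1 from the BT-549 table.

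In DU-145 cells, DOX lowered accessibility at the promoters of STING1, MAVS, RIGI and IFIH1 and raised it at many elements elsewhere in the same windows. Of the 35 regions, 17 were higher and 4 lower with DOX, and 14 were not called. Of all DU-145 regions, 37.1% were called higher and 17.4% lower, and the median effect was 0.50 over the member regions and 0.24 over all regions. The groups of libraries did not overlap in 22 member regions, of which 18 were higher with DOX, against 59.5% of all regions. All 4 regions called lower were promoters, while the 26 member regions away from canonical starts held 15 that were higher and 0 that were lower, where 42.5% and 13.2% of all regions outside protein-coding promoters were. Of the 35, 21 had a peak in every vehicle library and 32 in every DOX library. Regions without a peak in every vehicle library needed DOX libraries to enter the table. Of the 21, 9 were called higher (42.9%) and 4 lower (19.0%), against 24.3% and 26.4% of all regions with that peak pattern. With TMM factors 11 member regions were higher and 5 lower, and over the whole table calls were 68.0% higher with scaling by the summed coverage and 54.1% higher with TMM factors, which moved the median of all regions to 0.05.

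The STING1 promoter, which drives the adaptor of cytosolic DNA sensing, had the smallest adjusted p among the DU-145 promoters. Its levels were 3.18, 3.06 and 2.79 with vehicle and 1.94, 1.95 and 1.80 with DOX (chr5:139481001-139483100). The groups were well apart, with an effect of -0.67 ± 0.087 (adjusted p = 5.37e-08). The MAVS promoter, that of the mitochondrial adaptor, had 1.58, 1.55 and 1.83 with vehicle and 1.17, 1.23 and 1.05 with DOX (chr20:3846101-3847500). All DOX libraries lay below all vehicle libraries, an effect of -0.52 ± 0.12 (adjusted p = 0.000477).

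Of the RNA helicase genes, RIGI and IFIH1 had less accessible promoters with DOX and DHX58 showed no detectable difference. The RIGI promoter (chr9:32524901-32526900) had levels of 1.76, 1.84 and 1.95 with vehicle and 1.60, 1.25 and 1.22 with DOX, an effect of -0.45 ± 0.11 (adjusted p = 0.000509). The IFIH1 promoter (chr2:162317701-162319400), which is also that of the neighbouring gene GCA, had 2.65, 2.79 and 2.84 with vehicle and 2.35, 2.16 and 2.31 with DOX, an effect of -0.28 ± 0.089 (adjusted p = 0.00776, and 0.11 with loess offsets). Neither gene's groups overlapped. The DHX58 promoter was low in all 6 libraries, at 0.446, 0.314 and 0.395 with vehicle and 0.404, 0.442 and 0.348 with DOX, and its effect was 0.07 ± 0.25 (adjusted p = 0.83). Among promoter regions of all protein-coding genes in DU-145, 39.2% were called lower and 9.41% higher, so that 4 lower of 10 member promoters is a share near that background.

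The remaining DU-145 promoters were higher with DOX or not called. ZBP1, the Z-form sensor, had its most accessible start region 2226 bp inside the gene, with levels of 1.19, 0.746 and 0.575 with vehicle and 1.86, 1.39 and 1.52 with DOX. The groups did not overlap and the effect was 0.92 ± 0.18 (adjusted p = 3.81e-05). The IFI16 start region at 5794 bp inside the gene rose from 0.686, 0.528 and 0.721 to 1.06, 1.16 and 1.27, an effect of 0.88 ± 0.20 (adjusted p = 0.000289). Its choice rested on vehicle and DOX libraries together. With vehicle alone, the IFI16 start region 10206 bp upstream had the higher mean (0.699 against 0.645). That region (0.20 ± 0.13, adjusted p = 0.182) and the canonical IFI16 promoter (0.33 ± 0.29, adjusted p = 0.353) were not called. TLR3, the endosomal sensor, gave 0.229, 0.408 and 0.456 with vehicle and 0.523, 0.588 and 0.426 with DOX, groups that overlap, with an effect of 0.49 ± 0.21 (adjusted p = 0.0478). That call was lost without vehicle library 1 (0.26, adjusted p = 0.303), DOX library 1 (0.48, adjusted p = 0.0909) or DOX library 2 (0.37, adjusted p = 0.205), and the effect was -0.05 once the trend with GC content was removed. The CGAS promoter differed by -0.09 ± 0.099 (adjusted p = 0.467) and the AIM2 start region with the highest coverage, 111734 bp upstream of the canonical start, by 0.15 ± 0.22 (adjusted p = 0.595).

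**Figure D1:**
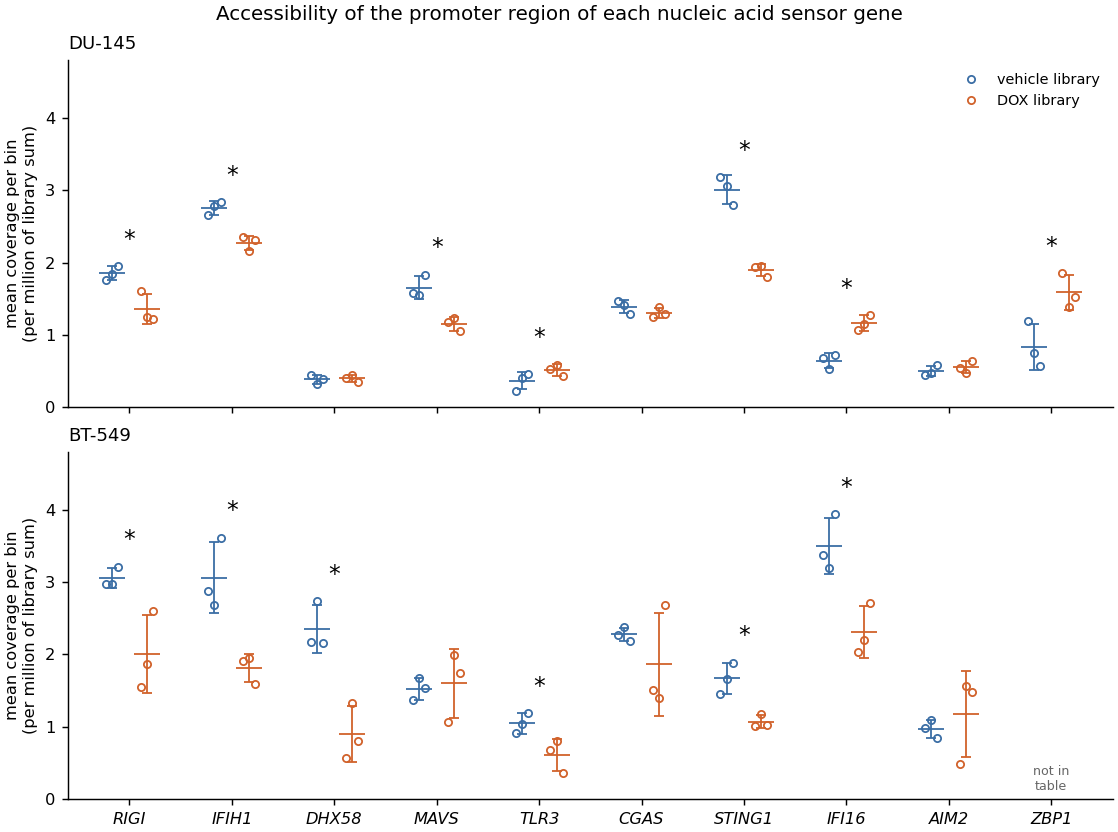
Accessibility of the promoter region of each sensor gene (horizontal axis) in DU-145 (upper panel) and BT-549 (lower panel), as mean bin coverage per 1000000 of the library's summed coverage. The region is an alternative start for IFI16, AIM2 and ZBP1 in DU-145 and for AIM2 in BT-549. Circles are single libraries, blue for vehicle and orange for DOX (3 per group), horizontal lines with bars are group means ± SD, and a star marks an adjusted p under 0.05. In DU-145 the STING1 vehicle circles sit between 2.79 and 3.18 and the DOX circles between 1.80 and 1.95, and in BT-549 the DHX58 vehicle circles sit between 2.16 and 2.73 and the DOX circles between 0.570 and 1.32.

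Away from the promoters, RIGI held the largest change in DU-145 cells. A region at an alternative RIGI start in the body of the gene, 23496 bp from the canonical start (chr9:32502401-32503000), had levels of 0.280, 0.0659 and 0.138 with vehicle and 1.0, 0.917 and 0.902 with DOX. It was nearly closed in the vehicle libraries and open in all DOX libraries, 6.43-fold higher with DOX (log2 2.69 ± 0.31, adjusted p = 4.85e-09). The authors' peak caller found a peak there in 1 of 3 vehicle and 3 of 3 DOX libraries. The region thus entered the table through the DOX group, and its direction is a description. The stretch shown above is a part of this region outside annotated exons and holds none of the letters searched, while an AP-1 match lies in the same region beyond it, at chr9:32502641-32502647.

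AIM2, whose product assembles an inflammasome on DNA, had 9 regions in its window, all higher on average with DOX and 6 of them called. Its distal intronic element (chr1:159091601-159092700), the stretch with 3 AP-1 matches, rose from 0.333, 0.429 and 0.308 to 0.756, 0.809 and 0.914, an effect of 1.18 ± 0.19 (adjusted p = 1.9e-06). At the canonical AIM2 promoter (chr1:159076801-159077500) the levels were 0.204, 0.218 and 0.366 with vehicle and 0.629, 0.442 and 0.453 with DOX, an effect of 0.96 ± 0.27 (adjusted p = 0.00308). Peaks lay there in 2 of 3 vehicle and 3 of 3 DOX libraries, so that it needed the DOX group to enter the table. An alternative AIM2 start 55634 bp upstream differed by 0.76 ± 0.24 (adjusted p = 0.00659), and without DOX library 1 by 0.56 (adjusted p = 0.0684). Once the GC trend was removed, the AIM2 calls at the promoter, 4666 bp inside the gene and 11684, 55634 and 84634 bp upstream were lost. Of the AIM2 calls, only that at the distal intronic element held there. The call 4666 bp inside AIM2 was lost in 11 of 15 alternatives, and those 11684 and 84634 bp upstream also with TMM factors. The IFI16 call at 5794 bp was lost without the GC trend too.

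MAVS, IFIH1, ZBP1 and RIGI each had a flanking element that rose. The element 6384 bp upstream of MAVS had 0.270, 0.242 and 0.160 with vehicle and 0.495, 1.05 and 0.789 with DOX, an effect of 1.81 ± 0.35 (adjusted p = 4.92e-05), with a peak in 0 of 3 vehicle and 3 of 3 DOX libraries, so that it entered the table through the DOX group. The IFIH1 downstream region (chr2:162261101-162261900) rose from 0.218, 0.365 and 0.404 to 0.779, 0.682 and 0.586, an effect of 1.04 ± 0.23 (adjusted p = 0.000254), which became 0.24 in the highest bin alone (adjusted p = 0.568) and had an adjusted p of 0.062 with the GC trend removed. The region 2324 bp upstream of ZBP1 (chr20:57622401-57623100) rose from 0.693, 0.446 and 0.562 to 1.36, 1.15 and 0.741, an effect of 0.95 ± 0.22 (adjusted p = 0.000359). At the RIGI upstream region (chr9:32529601-32530100) the levels were 0.166, 0.260 and 0.164 with vehicle and 0.626, 0.326 and 0.360 with DOX, an effect of 1.05 ± 0.34 (adjusted p = 0.00812). DOX library 1 was the highest there, and the effect was 0.73 without it (adjusted p = 0.098), 0.36 with loess offsets (adjusted p = 0.373) and 0.48 with the GC trend removed (adjusted p = 0.232). Peaks lay in 1 of 3 vehicle libraries at this RIGI region and in 2 of 3 at the IFIH1 region. Both had peaks in 3 of 3 DOX libraries and needed the DOX group to enter the table.

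Of the 21 DU-145 calls, 8 held under all 15 alternative settings and libraries left out, which do not include the study's cutoffs. They were the promoters of STING1, MAVS and RIGI, the RIGI intronic start, the elements upstream of MAVS and of ZBP1, the ZBP1 start region and the AIM2 distal element. The RIGI intronic start and the element upstream of MAVS entered the table through the DOX group.

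In BT-549 cells DOX lowered accessibility at sensor genes, and no region was called higher. Of the 50 member regions, 16 were lower and 0 higher with DOX and 34 were not called, against 18% lower and 12.2% higher among all BT-549 regions. The promoters of DHX58, IFIH1, IFI16, RIGI, STING1 and TLR3 were all called lower. The median effect was -0.67 over the member regions and -0.10 over all regions, and 42 of the 50 effects were negative. All 50 regions had a peak in every vehicle library, 7 had one in every DOX library as well and 30 had none with DOX. Regions outside these 7 needed the vehicle group to enter the table, and their direction is a description. Among them are the promoters of DHX58, STING1 and TLR3. Of the 7, 4 were called lower, against 11.6% of all regions with peaks in all 6 libraries. Of the 30 without a DOX peak, 9 were called lower (30%), against 29.4% of all regions with that peak pattern, a share near that background. Libraries of the groups did not overlap in 28 member regions, 27 of them lower with DOX, against 43.2% of all regions. TMM factors left 13 member regions lower and 0 higher and moved the median of all regions to 0.00, while the share of higher regions among all calls went from 40.4% to 51.7%.

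DHX58, the helicase that modulates its relatives, had the promoter that fell most. Its levels were 2.17, 2.73 and 2.16 with vehicle and 0.570, 1.32 and 0.796 with DOX (chr17:42111701-42113300). All DOX libraries lay well below all vehicle libraries, a 2.63-fold fall (log2 -1.39 ± 0.22, adjusted p = 1.67e-05). Peaks lay there in 3 of 3 vehicle and 2 of 3 DOX libraries, so that the region needed the vehicle group to enter the table. The IFIH1 promoter (chr2:162317801-162319400) had 2.88, 2.68 and 3.61 with vehicle and 1.90, 1.95 and 1.59 with DOX, an effect of -0.76 ± 0.16 (adjusted p = 0.000708). The RIGI promoter (chr9:32525601-32527500) had 2.98, 2.97 and 3.21 with vehicle and 1.55, 1.87 and 2.60 with DOX, an effect of -0.59 ± 0.15 (adjusted p = 0.00442). All 3 RNA helicase promoters were thus lower with DOX in this line, and the RIGI effect shrank to -0.17 (adjusted p = 0.464) once the GC trend was removed.

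Of the DNA sensor genes, IFI16 and STING1 had lower promoters and CGAS was not called. The IFI16 promoter (chr1:159008801-159010900) had 3.37, 3.19 and 3.94 with vehicle and 2.03, 2.19 and 2.71 with DOX, an effect of -0.59 ± 0.13 (adjusted p = 0.00124), which became -0.09 (adjusted p = 0.667) without the GC trend. The STING1 promoter (chr5:139481801-139483100) had 1.45, 1.66 and 1.89 with vehicle and 1.0, 1.17 and 1.03 with DOX, an effect of -0.63 ± 0.21 (adjusted p = 0.0247). Leaving out single libraries kept its effect between -0.54 and -0.72, with an adjusted p of up to 0.114 (without vehicle library 3). The STING1 call was lost in 9 of 15 alternatives, among them TMM, RLE and loess scaling, removal of the GC trend and the highest bin. At the CGAS promoter (chr6:73450601-73452600) the DOX libraries disagreed, at 1.51, 1.40 and 2.68 against 2.27, 2.37 and 2.19 with vehicle, and the effect of -0.27 ± 0.18 (adjusted p = 0.267) became -0.65 (adjusted p = 0.00683) without DOX library 3.

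TLR3, MAVS, AIM2 and ZBP1 complete the BT-549 promoters. TLR3 had 0.905, 1.04 and 1.18 with vehicle and 0.676, 0.796 and 0.362 with DOX (chr4:186068301-186069500), an effect of -0.80 ± 0.29 (adjusted p = 0.0378). The TLR3 call was lost without vehicle library 1 (-0.89, adjusted p = 0.0663), 2 (-0.80, adjusted p = 0.0999) or 3 (-0.70, adjusted p = 0.146) and without DOX library 3 (-0.49, adjusted p = 0.226). It was also lost with TMM, RLE and loess scaling, removal of the GC trend, DESeq2 and the replicate block, 10 of 15 alternatives in all. MAVS differed by 0.08 ± 0.20 (adjusted p = 0.811) and the AIM2 start region 4616 bp inside the gene by 0.29 ± 0.33 (adjusted p = 0.546). No ZBP1 promoter region was in the BT-549 table. Of the 9 promoters present 6 were lower, against 7.43% called lower and 18.3% called higher among protein-coding promoter regions of this line. With the GC trend removed, the calls at RIGI, IFI16, STING1 and TLR3 were lost and those at DHX58 and IFIH1 held. The share of all promoter regions called under that setting was not counted.

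Elements upstream of RIGI, downstream of IFIH1 and in an AIM2 intron, which rose with DOX in DU-145 cells, fell in BT-549 cells. Those upstream of MAVS and ZBP1 did not fall there, with effects of 0.31 ± 0.32 (adjusted p = 0.506) and 0.24 ± 0.36 (adjusted p = 0.658). The RIGI upstream region (chr9:32529401-32530100) had 1.57, 1.64 and 1.42 with vehicle and 0.205, 0.235 and 0.570 with DOX, a 4.32-fold fall (log2 -2.11 ± 0.37, adjusted p = 6.63e-05), with peaks in 3 of 3 vehicle and 0 of 3 DOX libraries. The IFIH1 downstream region (chr2:162261201-162261900) fell from 0.794, 1.04 and 1.38 to 0.0886, 0.166 and 0.314, 5.15-fold (log2 -2.36 ± 0.45, adjusted p = 0.000206). Peaks lay in 3 of 3 vehicle and 0 of 3 DOX libraries there and at the distal AIM2 element. Like the RIGI region, both entered the table through the vehicle group. The distal AIM2 element (chr1:159091801-159092400) had 0.685, 0.774 and 0.630 with vehicle and 0.209, 0.437 and 0.0576 with DOX, an effect of -1.64 ± 0.51 (adjusted p = 0.0159). The call at AIM2 was lost without DOX library 3 (-1.09, adjusted p = 0.116) and without vehicle library 1 (-1.64, adjusted p = 0.0545) or 2 (-1.56, adjusted p = 0.0661), and the effect was -1.02 with the GC trend removed (adjusted p = 0.173).

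RIGI had 21 accessible regions in BT-549 cells, spread over the gene body and both flanks, and all 21 effects were negative, 5 of them called, where 26283 of the 46298 effects of the line were negative. Of these 21 regions, 18 had peaks in all vehicle and no DOX libraries and so entered the table through the group in which they were high, and the signs are given as a description. Next to the promoter, the region 1246 bp inside RIGI (chr9:32524601-32525300) fell from 0.834, 0.895 and 1.0 to 0.237, 0.276 and 0.227, an effect of -1.90 ± 0.42 (adjusted p = 0.000898). Intronic regions 51596 bp and 61996 bp from the RIGI start fell by 1.62 and 1.20 on the log2 scale (adjusted p = 0.0106 and 0.0226). The first of these was lost without vehicle library 3 (-1.45, adjusted p = 0.0606) or DOX library 3 (-1.16, adjusted p = 0.0837). The second was lost without vehicle library 1 (-1.26, adjusted p = 0.0589), 2 (-1.13, adjusted p = 0.0868) or 3 (-1.22, adjusted p = 0.0578) or DOX library 2 (-1.01, adjusted p = 0.0666). IFIH1 had 3 regions and all were called lower, the intronic one at 20284 bp with an effect of -1.88 ± 0.54 (adjusted p = 0.00848). The alternative IFI16 start 9556 bp upstream had -0.49 ± 0.15 (adjusted p = 0.0111) and 0.0051 after removal of the GC trend, and it was lost without vehicle library 1 (-0.44, adjusted p = 0.0794) or DOX library 3 (-0.39, adjusted p = 0.0693).

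Of the 16 BT-549 calls, 4 held under all 15 alternatives, the study's cutoffs again not included. They were the promoters of DHX58 and IFIH1, the RIGI upstream element and the IFIH1 downstream element. Both elements had peaks in 3 of 3 vehicle and 0 of 3 DOX libraries, so that they entered the table through the vehicle group. The DHX58 promoter, with peaks in 2 of 3 DOX libraries, needed that group too.

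**Figure D2:**
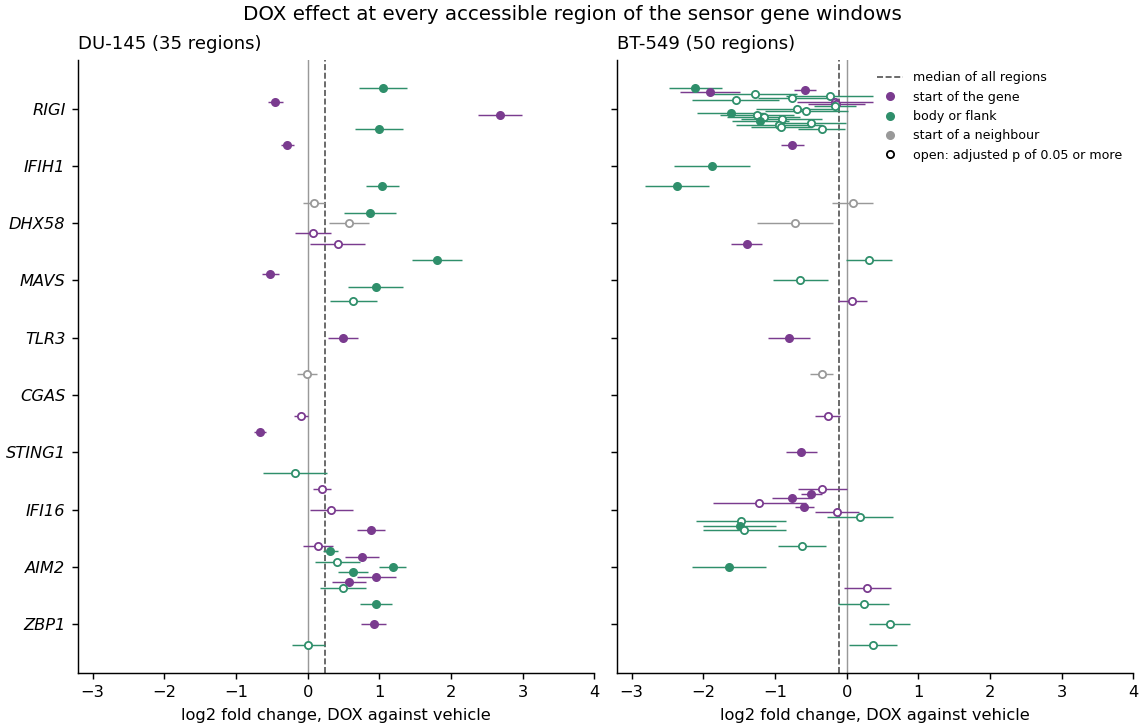
Log2 fold change (DOX over vehicle, horizontal axis) of every accessible region in the window of each sensor gene (rows), in DU-145 (left, 35 regions) and BT-549 (right, 50 regions). Colour gives the kind of region (start of the gene, body or flank, start of a neighbouring gene), filled circles passed an adjusted p of 0.05, bars are standard errors and the dashed line is the median of all regions of the line. In BT-549 all 21 RIGI regions lie left of 0 and no filled circle lies right of it, while in DU-145 the 4 filled circles left of 0 are promoters.

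The same elements can be followed bin by bin. In DU-145, 3 of the 315 member bins passed the study's cutoffs for an opening bin (at least 2-fold with an adjusted p under 1e-05) and 0 passed for closing, against 5% and 1.59% of all bins. All 3 are neighbours in the RIGI intronic start region, chr9:32502601-32502900, with log2 effects of 2.59 to 2.74. That region entered the table through the DOX group. In BT-549, 16 of the 387 member bins closed and 0 opened at the cutoffs of that line (at least 2-fold, adjusted p under 0.01), against 2.87% and 2.07% of all bins. These counts are from edgeR, and with DESeq2, the test the study used, 1 member bin passed in DU-145 and 0 in BT-549. The 16 BT-549 bins from edgeR comprised 6 at DHX58, 5 at IFIH1, 3 at IFI16 and 2 at RIGI. Both RIGI bins lie in the upstream element, at chr9:32529701-32529900, with effects of -4.37 and -3.32.

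**Figure D3:**
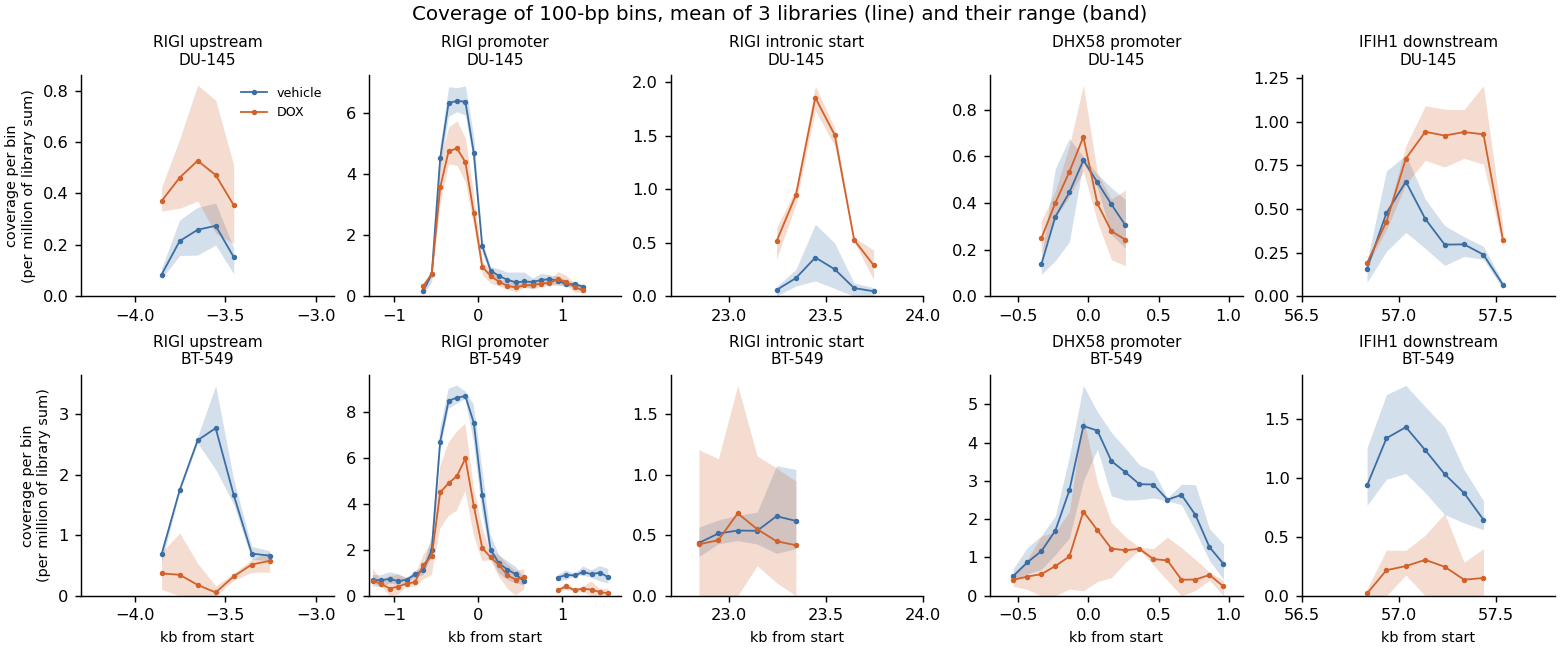
Coverage of single 100-bp bins, per 1000000 of the library's summed coverage (vertical axis), by distance in kb from the canonical start (horizontal axis, positive inside and downstream of the gene), at the RIGI upstream element, the RIGI promoter, the RIGI intronic start, the DHX58 promoter and the IFIH1 downstream element, in DU-145 (upper row) and BT-549 (lower row). Lines are means of 3 libraries (blue vehicle, orange DOX), bands span the lowest to the highest library, and vertical scales differ between panels. The RIGI upstream and IFIH1 downstream lines are higher with DOX in DU-145 (log2 1.05 and 1.04 over the regions) and lower in BT-549 (-2.11 and -2.36).

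Summed over whole windows, 5 of the 10 genes were called in DU-145. AIM2 (0.52 ± 0.084, adjusted p = 5.48e-06), ZBP1 (0.75 ± 0.13, adjusted p = 2.36e-05), IFI16 (0.34 ± 0.11, adjusted p = 0.00908) and TLR3 (0.49 ± 0.21, adjusted p = 0.0489) were higher and STING1 (-0.66 ± 0.084, adjusted p = 1.08e-07) was lower, against 20% higher and 31% lower of all gene windows. RIGI, IFIH1 and MAVS, whose promoters fell while other elements rose, had window effects of -0.12, -0.17 and -0.21 that were not called. In BT-549, 7 of 10 windows were lower and 0 higher, against 13% and 18.1% of all windows. DHX58 (-0.98 ± 0.17, adjusted p = 2.27e-05), IFIH1 (-0.94 ± 0.15, adjusted p = 1.06e-05) and RIGI (-0.75 ± 0.11, adjusted p = 3.62e-06), the RNA helicases, are among them, with TLR3 (-0.80), STING1 (-0.63), AIM2 (-0.57) and IFI16 (-0.56). The windows of MAVS (0.03), CGAS (-0.32) and ZBP1 (0.43) were not called. Windows of IFI16 and AIM2 share 2 BT-549 regions, that of DHX58 reaches starts of KAT2A and that of CGAS a start of MTO1.

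Peak calls of single libraries gave a coarser view of the member regions. In DU-145, a peak lay in 27.0 ± 4.36 of the 35 regions with vehicle and in 33.7 ± 0.577 with DOX (SD, n = 3). In BT-549, all 50 regions had a peak in every vehicle library and 12.7 ± 2.89 had one in a DOX library. The total number of peaks moved in the same way, from 63271 to 83605 with vehicle to 87702 to 95487 with DOX in DU-145, and from 65204 to 93929 to 30450 to 39837 in BT-549. Of the BT-549 member regions, 30 had peaks in all vehicle and no DOX libraries, as did 34.9% of all regions, and 7 had peaks in all 6 libraries, as did 38.3% of all regions. Among the 30, 9 were called lower, against 29.4% of all such regions, and among the 7, 4 were, against 11.6%.

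Before any DOX, the sensor genes differed between the lines, and most regions were less accessible in DU-145. Of the 25 shared regions, 17 were lower and 2 higher in DU-145 vehicle than in BT-549 vehicle libraries, against 52.1% and 22.3% of all shared regions. The coverage tables of the lines were summed over different sets of bins, and levels set across them carry that difference. The median of all shared regions was -0.47. With TMM factors it was -0.05 and 13 member regions were lower and 5 higher, and the share of higher regions among all calls was 49.9% in place of 30.0%.

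The IFI16 promoter stood farthest apart. Over chr1:159009801-159010200 it had 0.511, 0.445 and 0.325 in DU-145 and 7.12, 7.33 and 8.27 in BT-549, a 17.5-fold lower level in DU-145 (log2 -4.13 ± 0.21, adjusted p = 9.66e-21). The DHX58 promoter (chr17:42112401-42113100) had 0.446, 0.314 and 0.395 in DU-145 and 2.86, 3.51 and 2.67 in BT-549 (-3.00 ± 0.26, adjusted p = 1.46e-13). The RIGI upstream element had 0.166, 0.260 and 0.164 in DU-145 and 1.88, 2.03 and 1.74 in BT-549 (-3.18 ± 0.30, adjusted p = 1.83e-12). The alternative IFI16 start 9706 bp upstream was lower in DU-145 too (-1.87 ± 0.15, adjusted p = 5.15e-15).

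STING1 went the other way. Its shared promoter region (chr5:139481801-139483100) had 4.78, 4.60 and 4.17 in DU-145 and 1.45, 1.66 and 1.89 in BT-549, an effect of 1.45 ± 0.12 (adjusted p = 5.1e-14), and the AIM2 intronic region 84634 bp upstream was the other one higher in DU-145 (1.16 ± 0.18, adjusted p = 2.39e-07). At the IFIH1 and MAVS promoters the line difference was -0.06 ± 0.11 (adjusted p = 0.633) and 0.05 ± 0.15 (adjusted p = 0.767), and neither was called.

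Whether DOX acted differently in the lines was tested as an interaction on the shared regions. The DOX effect was more positive in DU-145 in 12 of 25 regions and more negative in 1, against 22% and 17.8% of all shared regions. With library sizes taken from the shared bins the calls were 14 and 0, and over all shared regions the share of positive calls was 70.7% in place of 55.3% as the median moved from 0.06 to 0.24. In order of adjusted p, the RIGI upstream element came first, with a difference of 3.76 ± 0.55 (adjusted p = 5.01e-07), followed by the IFIH1 downstream element (3.35 ± 0.50, adjusted p = 7.18e-07) and the AIM2 distal element (2.83 ± 0.51, adjusted p = 1.73e-05). The RIGI intronic start gave 3.42 ± 0.85 (adjusted p = 0.00114) and the TLR3 promoter 1.74 ± 0.45 (adjusted p = 0.0018). In BT-549 the RIGI upstream, IFIH1 downstream, AIM2 distal and RIGI intronic regions had peaks in 3 of 3 vehicle and 0 of 3 DOX libraries. They entered that table through the vehicle group. In DU-145 the RIGI upstream, RIGI intronic and IFIH1 downstream regions needed the DOX group to enter. All these differences are given as a description. At the STING1 promoter, lower with DOX in both lines, the interaction was -0.05 ± 0.21 (adjusted p = 0.887).

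**Figure D4:**
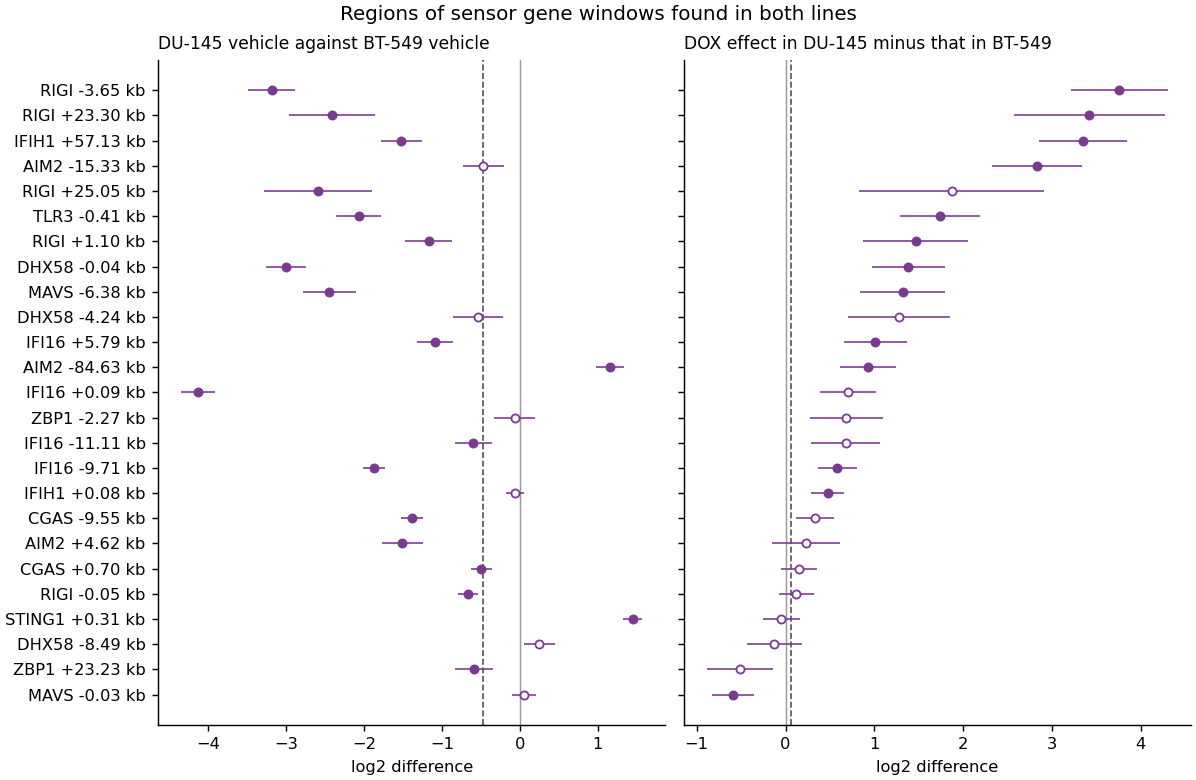
The 25 regions shared by the lines, named by gene and distance in kb from the canonical start (rows), with the log2 difference between DU-145 and BT-549 vehicle libraries (left) and the DOX effect in DU-145 minus that in BT-549 (right). Circles are estimates, filled where the adjusted p was under 0.05, bars are standard errors and dashed lines are medians of all shared regions (-0.47 and 0.06). The IFI16 promoter lies farthest left in the left panel (-4.13), STING1 lies farthest right there (1.45), and the RIGI upstream element tops the right panel (3.76).

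The letters of known response elements were counted in the 300 bases around the highest bin of each region, on both strands. The ISRE core stood in 3 of 35 member regions in DU-145 (8.57%, against 3.67% of all regions) and in 6 of 50 in BT-549 (12%, against 5.0%). The AP-1 letters stood in 16 of 35 (45.7%, against 37.4%) and 10 of 50 (20%, against 23.0%). The GAS letters TTCNNNGAA, a STAT site, stood in 6 of 35 (17.1%, against 9.35%) and 7 of 50 (14%, against 9.02%), and the kB letters in 1 of 35 (2.86%, against 4.42%) and 4 of 50 (8%, against 5.11%). AP-1 and ISRE matches do not overlap in the sequences printed. In the RefSeq promoter set (250 bases before to 50 after the start, 35116 entries), 6 of the 10 genes were matched by 7 entries, and the ISRE core stood in those of AIM2, IFIH1 and TLR3 and in 3.57% of all entries.

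Promoters of 39 other genes of nucleic acid sensing were read from the same tests. In DU-145, 31 were in the table and 3 were higher and 7 lower with DOX, 18 being called with TMM factors, where 9.41% of all protein-coding promoter regions were higher and 39.2% lower. Of the signalling genes 2 of 13 were higher and 4 lower, with TANK, a TBK1 binding protein, at -0.48 (adjusted p = 7.27e-05), TRAF6 at -0.36 (adjusted p = 0.00362) and TRIM25, an activator of RIG-I, at 0.27 (adjusted p = 0.00385). Of the other sensors 1 of 7 was higher and 2 lower, with EIF2AK2 (PKR) at -0.60 (adjusted p = 2.38e-05) and NLRP3 at 1.18 (adjusted p = 0.000226). Of the nucleases and inhibitors 0 of 11 were higher and 1 lower, TREX1, which degrades cytosolic DNA, at -0.34 (adjusted p = 0.00179).

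In BT-549, 33 of the 39 were in the table, 3 higher and 7 lower, where 18.3% of all protein-coding promoter regions were higher and 7.43% lower. Of 14 signalling genes 1 was higher, TRAF6 at 0.67 (adjusted p = 0.00207), and 3 were lower, among them IRF7, an interferon regulatory factor, at -0.40 (adjusted p = 0.00949) and CASP1 at -1.44 (adjusted p = 0.0106). Of 8 other sensors 1 was higher, LRRFIP1 at 0.54 (adjusted p = 0.00294), and 3 lower, among them DDX60, a helicase linked to RIG-I signalling, at -1.33 (adjusted p = 5.84e-07) and NOD2 at -1.75 (adjusted p = 0.0129). Of 11 nucleases and inhibitors CYLD was higher at 0.34 (adjusted p = 0.0198) and TREX1 lower at -0.55 (adjusted p = 0.000372). TREX1 was called lower in both lines.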

How the data were processed

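ATAC-seq was analysed in lines carrying an inducible MUC1 hairpin, DU-145 and BT-549, with 3 vehicle and 3 DOX libraries per line, grouped by the labels. The labels call the vehicle cells untreated, and their protocol gives 0.1% DMSO. The authors aligned reads to GRCh38 with BWA, removed duplicates with Picard and called peaks in each replicate with MACS2 2.2.7.1 at a q-value of 0.05. Merged regions found in 3 or more replicates were cut by them into 100-bp bins. MACS3 is also named in the submitters' processing notes. Each value deposited in the bin tables is an estimated count, the mean fragment coverage of the bin, and was not scaled for depth. The peak lists of the authors hold, per replicate, the fold enrichment of each peak (a ratio to local background), with its p-value and q-value as -log10.

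Bin values were summed over contiguous bins, rounded to whole numbers because they are not whole, and tested with edgeR 4.0.16 (glmQLFit with robust estimation, R 4.3.3), with library sizes equal to the summed coverage of each table, a minimum total of 10 and Benjamini-Hochberg adjustment over the table. Line difference and interaction were fitted on bins found in both tables with all 12 libraries. All 10 genes were named with their promoter, the region within 1 kb of an annotated start with the highest coverage over vehicle and DOX libraries. Beyond these, up to 8 regions per line and 5 per cross-line contrast with the smallest adjusted p were named. Alternatives were TMM, RLE and loess scaling, removal of the GC trend, DESeq2 1.42.0, other filters, the highest bin, the study's cutoffs, other flanks, a replicate block and leaving out each library. Scripts were tested on simulated data. The members, the gene lists and these tests were chosen with earlier results of these data known. The pathway lists and marker lists were written from general knowledge. Some items of these lists and sequences are not reported here. The depth is unknown in fragments, since the bin tables cover accessible bins only.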

Additional observations from a re-analysis of the deposited data

Results flagged for a closer look

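The DOX effect differed between DU-145 and BT-549 at 13 of the 25 shared regions by edgeR's quasi-likelihood interaction test (Benjamini-Hochberg, 3 libraries per group), and each is given as the log2 effect in DU-145 minus that in BT-549. At RIGI the differences were 3.76 at the element 3654 bp upstream, 3.42 at the start region 23296 bp inside the gene and 1.47 at the region 1096 bp inside it. IFIH1 gave 3.35 at the element 57134 bp from its start and 0.47 at its promoter. AIM2 gave 2.83 and 0.93 at the elements 15334 bp and 84634 bp upstream. TLR3 gave 1.74 and DHX58 1.38 at their promoters. IFI16 gave 1.01 at the start region 5794 bp inside the gene and 0.58 at the alternative start 9706 bp upstream. MAVS gave 1.32 at its upstream element and -0.59 at its promoter, the 1 negative difference. The calls at the RIGI upstream, RIGI intronic, IFIH1 57134 bp and AIM2 15334 bp elements held under all 19 alternatives. In BT-549 each of these elements entered the table through the vehicle group, with no peak in a DOX library. In DU-145 the RIGI upstream, RIGI intronic and IFIH1 57134 bp elements needed the DOX group to enter the table. The MAVS promoter difference became -0.41 with library sizes from the shared bins (adjusted p = 0.162) and was lost when single libraries were left out, with values of -0.43 to -0.60, and the DHX58 difference had an adjusted p of 0.089 with DESeq2. The least stable call was that 1096 bp inside RIGI, which was lost in 14 of 19 alternatives, among them TMM and RLE factors, DESeq2 and the replicate block, with values of 1.10 to 1.67. The IFIH1 promoter call was lost in 9, that 9706 bp upstream of IFI16 in 7 including a change of sign, that 5794 bp inside IFI16 in 5, that upstream of MAVS in 4, that 84634 bp upstream of AIM2 in 3 and that of TLR3 in 1.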

How the results depend on the processing

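Of the member regions called, 8 of 21 in DU-145, 4 of 16 in BT-549, 12 of 19 in the line comparison and 4 of 13 in the interaction held under every alternative followed region by region (15, 15, 19 and 19 settings). The study's cutoffs are not among these settings. In DU-145 the other filters kept all 79177 regions, so that they could not remove a call. In DU-145 the 21 calls became 12 with loess offsets, 10 with the GC trend removed and 2 with the study's cutoffs. In BT-549 the 16 calls became 10 with loess offsets, 6 with the GC trend removed, 5 with the highest bin and 5 with the study's cutoffs. The 13 interaction calls became 5 with the GC trend removed. Window calls in DU-145 went from 5 to 8 with flanks of 50 kb, bins past the study's cutoffs from 3 to 1 in DU-145 and from 16 to 0 in BT-549 with DESeq2, and pathway promoter calls in DU-145 from 10 to 18 with TMM factors. Regions with a peak went from 33.7 to 33.0 in DU-145 DOX libraries when the region had to cover the larger part of the peak, and in BT-549 vehicle libraries from 50 to 40.7 under that rule and to 49.7 at a q-value under 0.01.

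With each library left out in turn, calls ranged from 16 to 20 regions in DU-145, 10 to 16 in BT-549, 17 to 19 in the line comparison and 8 to 13 in the interaction, and from 4 to 5 windows in DU-145 and 4 to 6 in BT-549. The BT-549 regions were 10 without vehicle library 1 or 3, the interaction 8 without BT-549 vehicle library 3 or DOX library 2, and the BT-549 windows 4 without vehicle library 3. With the GC trend removed the sign turned at TLR3 (-0.051) and at the AIM2 intronic region 84634 bp upstream (-0.21) in DU-145, at the IFI16 start 9556 bp upstream in BT-549 (0.0051), at the IFI16 start 11106 bp upstream (0.44) and the RIGI promoter (0.042) in the line difference, and at the IFI16 start 9706 bp upstream in the interaction (-0.21), and the cause was not tested.

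Same-numbered vehicle and DOX libraries deviated together with correlations of -0.031 to 0.065, so the numbers do not pair the samples. With the replicate number as a block, calls were 20 and 14 regions in DU-145 and BT-549, 19 in the line comparison, 12 in the interaction, 5 and 8 windows, 4 and 16 bins, and 10 pathway promoters in each line. The shallow BT-549 DOX libraries limit what can be seen at low regions of that line.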
